A study of Homo sapiens with 6 samples.

Results

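The genes described here encode enzymes that oxidise, reduce or conjugate reactive aldehydes, ketones, drugs, steroids, retinoids and lipids: aldehyde dehydrogenases (ALDH), aldo-keto reductases of families 1 and 7 (AKR), cytosolic and mitochondrial glutathione transferases (GST), microsomal glutathione transferases (MGST), UDP-glucuronosyltransferases (UGT) and cytochromes P450 (CYP). They were chosen by gene symbol, leaving out ALDH1L2, ALDH18A1 and CYP51A1, and by a sum of at least 60 counts over the 6 libraries. Among 29176 deposited genes, 86 matched by symbol and 59 reached that sum: 12 ALDH, 8 AKR, 9 GST, 3 MGST, 6 UGT and 21 CYP genes. Of these, CYP2D7 and GSTT2 are typed as polymorphic pseudogenes in GENCODE v29 and may encode no enzyme. The rule uses no difference between the groups, but the members were chosen with earlier results of these data known. Just inside the threshold were CYP4F8 with 67 counts and CYP2W1 with 78, and just outside were AKR7A3 with 57 and CYP27A1 with 54. CYP26A1, a retinoic acid hydroxylase, had 44 counts and is not among the members, and UGT1A5 is a member that did not pass the filter on low counts and could not be tested.

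The cells were HaCaT, an established line of human keratinocytes, and every sample had been stimulated with M5, a stimulus used to model psoriasis in culture whose components the labels do not list. In the control group (si-NC+M5, 3 samples) a control small interfering RNA was given, and in the knockdown group (si-eIF4E+M5, 3 samples) one against EIF4E, whose protein binds the messenger RNA cap and starts translation. RNA was taken at 48 hours. Neither unstimulated nor untransfected cells were part of the study's groups, and whether replicates were separate cultures is not stated, so the p-values reflect the spread among these libraries alone, and that spread may be technical.

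Enzymes of these families work in sequence. P450 enzymes insert oxygen into lipophilic molecules, and the microsomal ones take electrons from the reductase POR. Dehydrogenases and reductases convert the resulting or diet-derived carbonyls to acids or alcohols, and transferases attach glutathione or glucuronic acid for export. Several are textbook targets of 2 ligand- or stress-activated transcription factors, the aryl hydrocarbon receptor AHR (CYP1A1, CYP1B1, ALDH3A1, UGT1A6) and NRF2 (AKR1B10, AKR1C1 to AKR1C3). In skin, members also control retinoic acid, active vitamin D and the lipids of the barrier.

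EIF4E fell from 3.46, 3.21 and 3.43 FPKM in the control libraries to 1.47, 1.24 and 1.59 in the knockdown libraries (log2 fold change -1.25 ± 0.09, SE, edgeR adjusted p = 7.2e-05). FPKM is the authors' level per gene length and library size, and log2 fold changes here are of knockdown over control from edgeR's fit to the counts, with n = 3 per group throughout. Library totals lay between 71044961 and 74246501 counts. All 10 keratinocyte markers had a mean of at least 36.55 FPKM, whereas 0 of the fibroblast, melanocyte, leukocyte or liver markers that were in the table had a mean of 1 FPKM. Summed fibroblast markers were 0.363 to 0.475 FPKM in the control and 0.773 to 1.09 in the knockdown libraries, and summed leukocyte markers 0.323 to 0.529 and 0.509 to 1.05, and their part in the results was not tested. In bulk RNA, fewer cells of a type and less RNA per cell cannot be told apart.

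Relative to the library, RNA for a subset of these enzymes was higher in the knockdown, and nearly all called changes were in that direction. By the quasi-likelihood test of edgeR, adjusted over all genes by Benjamini-Hochberg, 13 of 58 tested members rose, 1 fell and 44 did not pass an adjusted p of 0.05. Over all 18022 tested genes 7.44% rose and 8.4% fell, against 22.4% and 1.72% of the members. Among tested genes with a mean of at least 1 FPKM it was 9.68% and 12.3%, against 29.3% and 2.44% of the members. The median log2 fold change was 0.19 for the members and -0.01 for all tested genes, and 39 of the 58 members were above 0. The groups did not overlap in 18 members that were higher and 1 that was lower in the knockdown, against 16.5% and 17.4% of all tested genes. Changes were modest: 1 called member, CYP39A1, reached 2-fold, and the others that rose lay between ALDH3A2 (1.18-fold) and ALDH3B2 (1.95-fold). Fewer members were called when certain libraries were left out. Without si-NC+M5 replicate 2 only AKR1C3, ALDH3A1, ALDH3B2 and CYP27C1 were called. Calls numbered 8 without si-NC+M5 replicate 1, 7 without si-eIF4E+M5 replicate 3 and 6 without a filter on low counts. This loss was not limited to the members. Calls over all genes, 2853 in the main fit, dropped whichever library was removed. They lay between 1598 (si-NC+M5 replicate 2 removed) and 2283 (si-NC+M5 replicate 3 removed). Dropping the filter left 1818 calls over all genes.

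**Figure D1:**
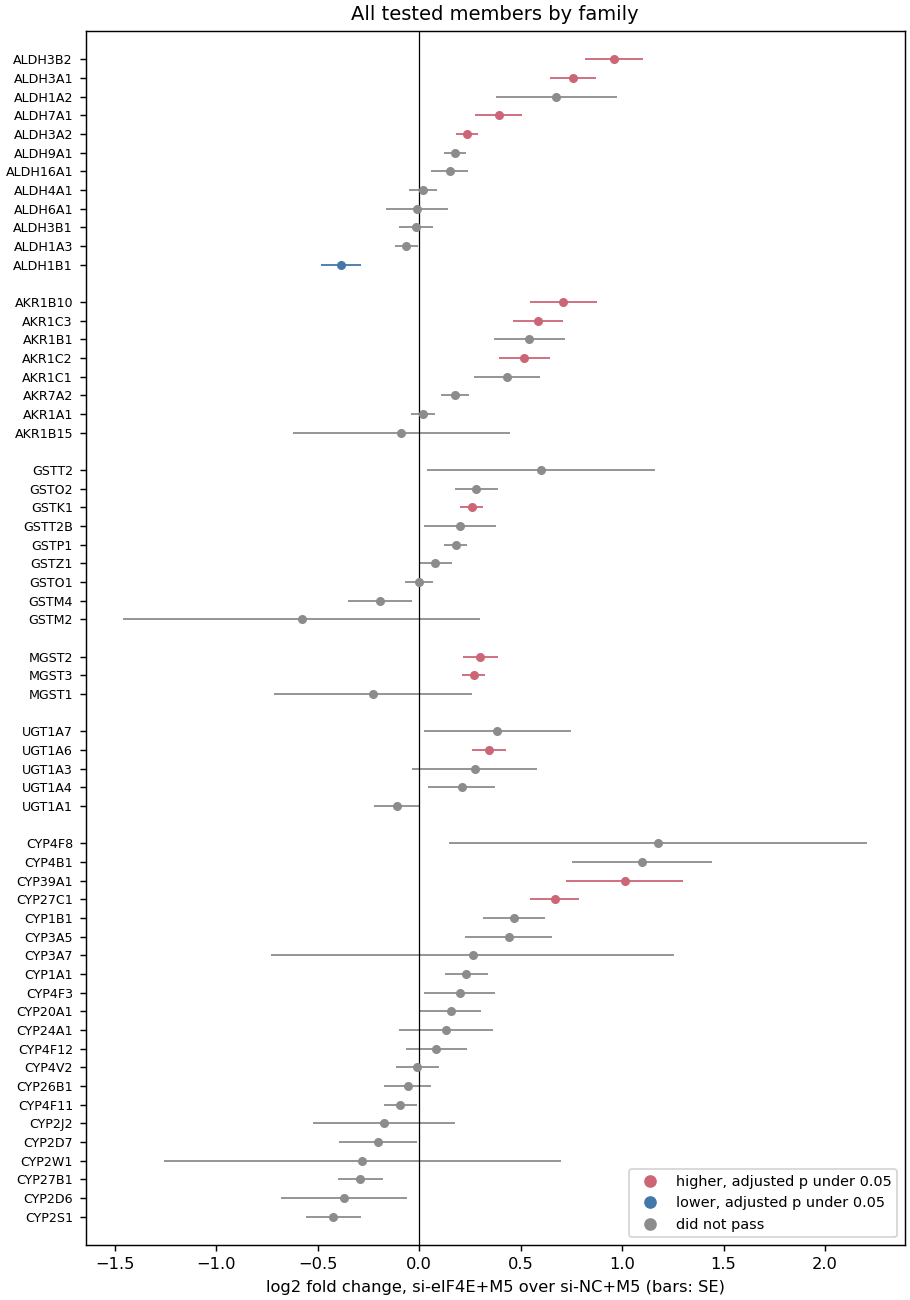
Log2 fold change (x axis, si-eIF4E+M5 over si-NC+M5, bars are SE, n = 3 per group) of the 58 tested members, grouped by family in the order ALDH, AKR, GST, MGST, UGT and CYP; red marks the 13 that rose, blue the 1 that fell and grey those that did not pass. The called genes sit to the right of 0 except ALDH1B1, and most genes of every family except MGST are grey.

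Among aldehyde dehydrogenases 4 of 12 rose (33.3%) and 1 fell (8.33%), against 7.44% and 8.4% of all tested genes. The median log2 fold change was 0.16. ALDH3A1, which oxidises aromatic and lipid-derived aldehydes and is abundant in the cornea, had 19.7, 18.4 and 23.7 FPKM in the control libraries and 32.8, 33.2 and 40.6 in the knockdown libraries. Every knockdown value was above every control value, and the log2 fold change was 0.76 ± 0.11 (edgeR adjusted p = 0.002). ALDH3B2, of a different subfamily, had 2.44, 2.29 and 3.28 against 5.12, 5.03 and 5.76 FPKM, a log2 fold change of 0.96 ± 0.14 (edgeR adjusted p = 0.002). These were the pair with the smallest adjusted p of all members, and both stayed called in each of 17 other settings, with log2 fold changes of 0.64 to 0.88 and 0.79 to 1.15. Summed with ALDH3B1, with which it shares 0% of its 75-base words and which holds more counts, ALDH3B2 gave a log2 fold change of 0.31 ± 0.07 (edgeR adjusted p = 0.016). ALDH3B1 alone did not pass, at 4.21, 4.20 and 3.88 against 3.82, 4.21 and 4.36 FPKM. The fatty aldehyde dehydrogenase ALDH3A2, whose loss causes an inherited ichthyosis, had 11.9, 11.2 and 12.2 against 14.3, 14.003 and 14.1 FPKM. The groups were apart by a small amount (log2 fold change 0.23 ± 0.05, edgeR adjusted p = 0.016), and the call was lost without si-NC+M5 replicate 1, si-NC+M5 replicate 2 or si-eIF4E+M5 replicate 3 (largest adjusted p = 0.079).

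ALDH7A1, an enzyme of lysine breakdown, had 1.02, 0.998 and 1.18 FPKM in the control and 1.23, 1.5003 and 1.55 in the knockdown libraries, where normalised counts of the groups overlapped (log2 fold change 0.39 ± 0.11, edgeR adjusted p = 0.044). Its call was lost in 7 settings, among them limma on log2(FPKM + 1) (adjusted p = 0.11) and the removal of si-NC+M5 replicate 1 or 2 or si-eIF4E+M5 replicate 2 or 3. The member that fell was ALDH1B1, a mitochondrial dehydrogenase of acetaldehyde and retinal. It had 7.29, 7.43 and 7.57 against 5.26, 6.48 and 5.68 FPKM (log2 fold change -0.38 ± 0.10, edgeR adjusted p = 0.027). Its groups did not overlap, but its call held without si-eIF4E+M5 replicate 2 and with none of the other 5 libraries left out (largest adjusted p = 0.09).

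ALDH1A3, which makes retinoic acid and was the most abundant ALDH gene, lay at 43.6, 44.2 and 43.9 FPKM in the control and 43.0, 40.8 and 44.9 in the knockdown libraries, a difference of -0.06 ± 0.06 on the log2 scale that missed the threshold. An antisense gene overlaps 27.5% of its exon bases, and since strand use is not stated, reads of the pair cannot be told apart. The related ALDH1A2 was near the lower end at 0.0701 to 0.198 FPKM (0.68 ± 0.30, edgeR adjusted p = 0.17). ALDH9A1, of carnitine synthesis, had 13.6 FPKM in each control library and 15.9, 15.4 and 15.8 in the knockdown libraries without passing (edgeR adjusted p = 0.059). ALDH4A1 (proline breakdown), ALDH6A1 (valine breakdown) and ALDH16A1 had log2 fold changes between -0.01 and 0.15 and did not pass either. Outside the symbol rule, ALDH2, the main acetaldehyde dehydrogenase, had 6.43, 5.73 and 6.41 against 7.01, 6.63 and 6.75 FPKM (0.11 ± 0.06, edgeR adjusted p = 0.29).

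**Figure D2:**
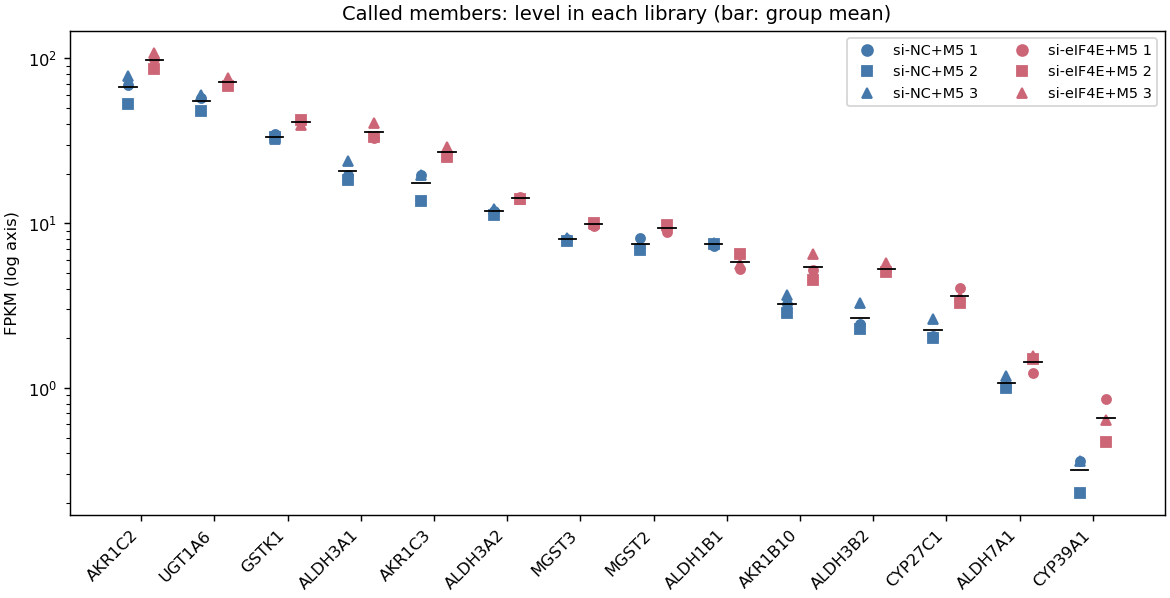
FPKM on a log axis (y) of the 14 called members (x, ordered by mean level) in each library, with circles, squares and triangles for replicates 1, 2 and 3, blue for si-NC+M5, red for si-eIF4E+M5 and a bar at each group mean. The red points lie above the blue ones for every gene except ALDH1B1, and levels run from AKR1C2 at 66.8 and 97.7 FPKM to CYP39A1 at 0.316 and 0.653.

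Aldo-keto reductases gave 3 of 8 higher (37.5%, against 7.44% of all tested genes) and 0 lower in edgeR. The median log2 fold change was 0.48. DESeq2 also called 3 higher and 0 lower, and at an unadjusted edgeR p under 0.05 it was 6 higher and 0 lower. Over all genes DESeq2 called 3586, against 2853 by edgeR. The aldose reductase AKR1B1, the retinal reductase AKR1B10 and the steroid and prostaglandin reductases AKR1C1, AKR1C2 and AKR1C3, had log2 fold changes of 0.43 to 0.71. AKR1B10 went from 3.23, 2.84 and 3.64 to 5.18, 4.52 and 6.53 FPKM (0.71 ± 0.16, edgeR adjusted p = 0.016). AKR1C2, the most abundant, went from 69.3, 52.9 and 78.3 to 99.8, 85.9 and 107 FPKM (0.52 ± 0.13, edgeR adjusted p = 0.021). AKR1C3, which also makes androgens and prostaglandin F, went from 19.5, 13.6 and 19.7 to 26.7, 25.1 and 29.1 FPKM (0.58 ± 0.12, edgeR adjusted p = 0.011). These groups did not overlap. AKR1C1 did overlap, at 14.2, 10.4 and 16.2 against 20.5, 14.6 and 21.1 FPKM (0.43 ± 0.16, edgeR adjusted p = 0.11), as did AKR1B1, at 52.9, 37.1 and 63.3 against 78.0, 61.4 and 88.6 FPKM (0.54 ± 0.18, edgeR adjusted p = 0.066).

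Control replicate 2 was low for these genes. Relative to the control mean, normalised counts in that library were 73.3% for AKR1B1, 88.6% for AKR1B10, 76.9% for AKR1C1, 79.9% for AKR1C2 and 78.2% for AKR1C3. For all of these genes replicate 2 was the lowest and replicate 3 the highest library in both groups. AKR1A1, the general aldehyde reductase, varied little, between 95.05% and 105% in the 6 libraries. AKR7A2 lay between 96.9% and 118%. Its knockdown libraries were all above its control libraries, but it did not pass (0.18 ± 0.07, edgeR adjusted p = 0.12). Without si-NC+M5 replicate 2 the log2 fold change was 0.38 for AKR1C2 and 0.63 for AKR1B10, and neither was called (edgeR adjusted p = 0.055 and 0.073). The call of AKR1B10 was also lost without si-NC+M5 replicate 1 or si-eIF4E+M5 replicate 3, that of AKR1C2 without either of these or si-eIF4E+M5 replicate 1 and with a robust spread estimate, and that of AKR1C3 with no library left out.

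**Figure D3:**
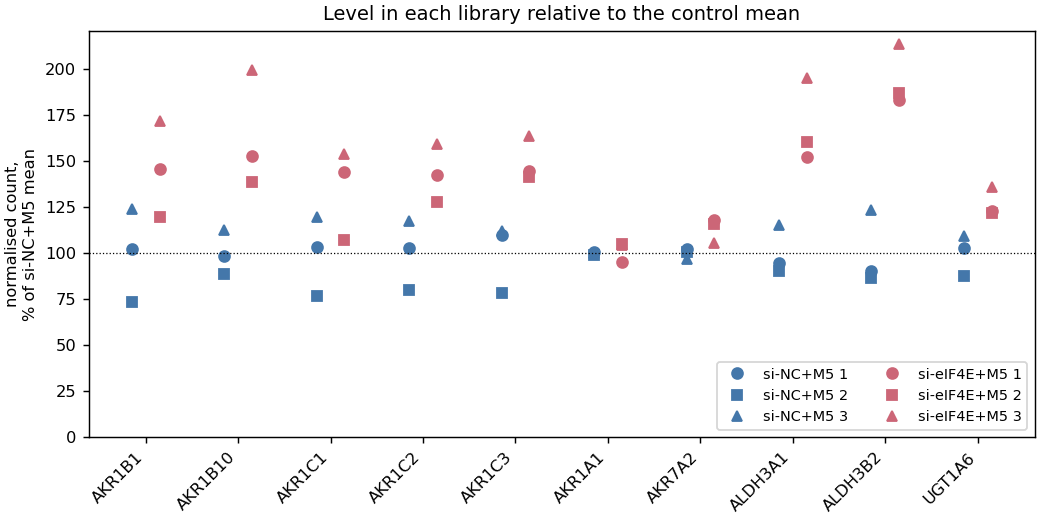
Normalised count of 10 members in each library as a percentage of the si-NC+M5 mean (y axis; x axis, genes), with circles, squares and triangles for replicates 1, 2 and 3, blue for si-NC+M5 and red for si-eIF4E+M5; the dotted line is 100%. For AKR1B1, AKR1B10 and the AKR1C genes the squares are lowest and the triangles highest in both colours, and AKR1A1 stays between 95.05% and 105%.

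AKR1C genes are near-copies of each other on chromosome 10, so their reads can be split wrongly. Over the 972 coding bases AKR1C1 and AKR1C2 were 98.05% identical, AKR1C1 and AKR1C3 91.9%, and AKR1C2 and AKR1C3 91.3%. The first 90 coding bases, from GENCODE v29 transcripts, are shown to let the likeness be seen; capitals mark the 8 positions at which the 3 genes are not all the same, of which AKR1C1 and AKR1C2 differ at 1.
AKR1C1: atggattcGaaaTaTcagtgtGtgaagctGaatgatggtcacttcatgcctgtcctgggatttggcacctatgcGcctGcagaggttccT
AKR1C2: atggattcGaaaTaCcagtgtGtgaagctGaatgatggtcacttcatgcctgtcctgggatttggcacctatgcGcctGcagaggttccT
AKR1C3: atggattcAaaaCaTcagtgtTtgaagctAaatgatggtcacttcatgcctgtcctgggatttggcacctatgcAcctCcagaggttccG
Of all 75-base words in GENCODE transcripts of AKR1C2, 30.1% also occur in another gene, against 21.9% for AKR1C1 and 2.87% for AKR1C3. Summed over the AKR1C genes with AKR1C4 before the fit, where this split has no effect, counts gave a log2 fold change of 0.51 ± 0.13 (edgeR adjusted p = 0.026). The same sum over AKR1B1, AKR1B10 and AKR1B15 gave 0.55 ± 0.17 (edgeR adjusted p = 0.061), so AKR1B10 was called alone and not in the sum, in which AKR1B1 holds most counts. AKR1B15 had 0.0466 to 0.182 FPKM.

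Glutathione transferases were the most abundant family. In edgeR 1 of 9 rose (11.1%, against 7.44% of all tested genes) and 0 fell, with a median log2 fold change of 0.18. DESeq2 called 2 higher and 0 lower, and at an unadjusted edgeR p under 0.05 it was 3 and 0. GSTP1, the main form in epithelia, alone held 44.96% of the summed mean FPKM of all members. It had 484, 459 and 467 FPKM in the control and 531, 567 and 530 in the knockdown libraries. All knockdown values were above all control values, yet the log2 fold change of 0.18 ± 0.06 did not pass (edgeR adjusted p = 0.056); it was called in 10 of 17 other settings, with log2 fold changes of 0.14 to 0.22. The mitochondrial and peroxisomal GSTK1 had 34.9, 33.3 and 32.2 against 41.5, 42.0 and 39.2 FPKM. Its groups were apart (0.26 ± 0.06, edgeR adjusted p = 0.012), and its call was lost without si-NC+M5 replicate 2 (adjusted p = 0.052). GSTO1, which can reduce dehydroascorbate, had 53.7 to 58.9 FPKM in the control and 52.0 to 60.6 in the knockdown libraries and did not pass.

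The remaining GST genes were lower and none passed. GSTO2 had 1.18 to 1.499 FPKM in the control and 1.59 to 1.69 in the knockdown libraries (0.28 ± 0.11, edgeR adjusted p = 0.11), and GSTZ1, of tyrosine breakdown, 2.32 to 2.63 and 2.50 to 2.85. The mu-class genes GSTM4 and GSTM2 had log2 fold changes of -0.19 ± 0.16 and -0.58 ± 0.88. GSTT2B and GSTT2 share 85.4% and 74.7% of their 75-base words with other genes, and their counts together gave 0.24 ± 0.16 (edgeR adjusted p = 0.4). The promoter of GSTP1 is shown because it holds a match to TGACNNNGC, the core of the antioxidant response element that NRF2 binds, in capitals 66 bases before the start (RefSeq, GRCh38.p14, chr11:67583562-67583861, plus strand).
GSTP1: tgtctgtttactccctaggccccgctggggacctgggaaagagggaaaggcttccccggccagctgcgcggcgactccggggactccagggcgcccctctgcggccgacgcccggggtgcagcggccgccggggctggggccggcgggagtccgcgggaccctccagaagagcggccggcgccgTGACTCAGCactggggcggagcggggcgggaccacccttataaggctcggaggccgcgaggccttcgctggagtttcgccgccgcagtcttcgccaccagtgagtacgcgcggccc

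Microsomal glutathione transferases, membrane proteins that act on lipid peroxides and leukotrienes, gave 2 of 3 higher (66.7%, against 7.44% of all tested genes). MGST2, which can make leukotriene C4, had 8.07, 6.83 and 7.51 FPKM in the control and 8.84, 9.75 and 9.58 in the knockdown libraries (0.30 ± 0.09, edgeR adjusted p = 0.039). MGST3 had 8.05, 7.75 and 8.15 against 9.59, 10.04 and 9.81 FPKM (0.27 ± 0.06, edgeR adjusted p = 0.011). In both genes the groups were apart. Without si-NC+M5 replicate 2 neither was called (adjusted p = 0.15 and 0.055), and MGST2 also lost its call without si-NC+M5 replicate 3 or si-eIF4E+M5 replicate 2 or 3. Exons of MAML3 on the other strand overlap 7.92% of the MGST2 exon bases. MGST1 was barely detected, at 0.0218 to 0.0431 FPKM.

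Of the glucuronosyltransferases 1 of 5 tested genes rose (20%, against 7.44% of all tested genes). UGT1A6, which conjugates small phenols, held 88.0% to 92.2% of the counts of the UGT1A genes in each library. It went from 57.6, 48.1 and 60.2 to 71.1, 67.8 and 75.7 FPKM with no overlap (0.34 ± 0.08, edgeR adjusted p = 0.02). The call was lost without si-NC+M5 replicate 2 or si-eIF4E+M5 replicate 3 (adjusted p = 0.067 and 0.07). All UGT1A genes share their last exons, so that 40.2% of the 75-base words of UGT1A6 and 77.0% of those of UGT1A3 occur in another gene. The summed counts of the UGT1A genes rose by a log2 fold change of 0.31 ± 0.08 (edgeR adjusted p = 0.024). UGT1A1, the bilirubin enzyme, had 2.37 to 2.97 FPKM in the control and 2.42 to 2.66 in the knockdown libraries, and UGT1A4, the next most abundant, 5.34, 4.29 and 7.11 against 6.94, 6.98 and 5.85. Neither passed, nor did UGT1A3 and UGT1A7. Antisense genes overlap 20.5% of the UGT1A6 exon bases. UGT1A5 had 0, 401 and 0 counts in the control and 0, 5 and 0 in the knockdown libraries, and was not tested.

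RefSeq gives UGT1A6 a pair of starts, on the plus strand of chromosome 2 in GRCh38.p14, and both promoters are shown because each holds 1 of the motifs searched. The upstream one (chr2:233691452-233691751) has GCGTG, the core of the element that AHR binds, 200 bases before its start.
UGT1A6 upstream start: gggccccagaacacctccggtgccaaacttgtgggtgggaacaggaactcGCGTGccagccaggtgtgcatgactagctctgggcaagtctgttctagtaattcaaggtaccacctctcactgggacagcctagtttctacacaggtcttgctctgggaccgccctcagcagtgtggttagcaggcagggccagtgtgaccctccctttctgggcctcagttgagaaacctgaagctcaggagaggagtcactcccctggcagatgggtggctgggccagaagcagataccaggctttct
The downstream one (chr2:233692640-233692939) has TGACNNNGC, 98 bases before its start, also in capitals.
UGT1A6 downstream start: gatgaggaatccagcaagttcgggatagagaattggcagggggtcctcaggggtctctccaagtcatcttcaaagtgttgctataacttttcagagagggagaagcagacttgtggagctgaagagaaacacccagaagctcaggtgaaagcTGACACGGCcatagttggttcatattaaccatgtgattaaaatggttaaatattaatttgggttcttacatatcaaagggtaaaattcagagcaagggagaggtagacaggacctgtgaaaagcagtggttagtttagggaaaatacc
Promoters, 250 bases before to 50 after each start, were found for 45 of the 59 members. On either strand GCGTG occurred in at least 1 promoter of 4 of the 9 members that rose and have a promoter here, and in 40.6% of all 27305 genes with one. For TGACNNNGC it was 1 of 9, UGT1A6, against 16.1% of all genes. No match of one motif overlapped a match of the other in the promoters printed. These matches describe letters in these windows and are no evidence of binding.

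Cytochromes P450 were expressed at low levels, and 2 of 21 rose (9.52%, against 7.44% of all tested genes) and 0 fell in edgeR. DESeq2 called 4 higher and 1 lower, and at an unadjusted edgeR p under 0.05 it was 4 and 2. CYP27C1, which desaturates retinol to vitamin A2 in human skin, had 2.08, 2.01 and 2.61 FPKM in the control and 4.03, 3.28 and 3.57 in the knockdown libraries. The groups were apart, and the log2 fold change of 0.67 ± 0.12 (edgeR adjusted p = 0.0053) stayed called in each of 17 other settings (0.52 to 0.80). CYP39A1, a hydroxylase of 24-hydroxycholesterol, had 0.359, 0.230 and 0.358 against 0.853, 0.469 and 0.636 FPKM, from 54 to 87 and 114 to 203 counts. Its log2 fold change was 1.01 ± 0.29 (edgeR adjusted p = 0.04) and its call was lost in 8 of 16 other settings, among them the removal of any control library or of si-eIF4E+M5 replicate 1 or 3. CYP4B1 was likewise low, at 0.170, 0.273 and 0.173 against 0.633, 0.282 and 0.470 FPKM, and did not pass (1.10 ± 0.34, edgeR adjusted p = 0.058). CYP4F8, with 0, 4 and 16 against 28, 8 and 11 counts, did not pass at 1.18 ± 1.03.

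AHR-responsive P450 genes did not pass. CYP1A1 had 6.70, 6.63 and 7.88 FPKM in the control and 7.98, 7.84 and 9.63 in the knockdown libraries, with overlap (0.23 ± 0.11, edgeR adjusted p = 0.19). CYP1B1 had 2.32, 2.39 and 3.02 against 3.16, 3.30 and 4.42 FPKM, with overlap of the normalised counts (0.47 ± 0.15, edgeR adjusted p = 0.067, called in 6 of 17 other settings), and antisense exons overlap 12.9% of its bases. CYP2S1, a P450 of epithelia, had 6.98, 7.37 and 5.66 against 4.83, 4.48 and 5.91 FPKM, and 1 knockdown library lay above the lowest control (-0.42 ± 0.14, edgeR adjusted p = 0.062, called in 5 other settings). Of the P450 genes of vitamin D, CYP27B1, which makes the active hormone, had 8.56, 6.97 and 7.99 against 7.02, 5.45 and 7.16 FPKM (-0.29 ± 0.11, edgeR adjusted p = 0.12), and CYP24A1, which degrades it, 0.675 to 1.08 against 0.782 to 1.27. CYP26B1, which degrades retinoic acid, had 3.18 to 4.26 and 3.39 to 3.96 FPKM and did not pass.

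Fatty acid and eicosanoid hydroxylases were split by level and none passed. CYP4F11, the most abundant P450 after CYP1A1, had 7.60 to 7.87 FPKM in the control and 6.58 to 7.96 in the knockdown libraries (-0.09 ± 0.08). CYP4F3, which inactivates leukotriene B4, CYP4F12 and CYP4V2 had log2 fold changes of 0.20, 0.08 and -0.01, and the CYP4F counts together gave -0.03 ± 0.08. The arachidonic acid epoxygenase CYP2J2 was low, at 0.230 to 0.460 FPKM. Of the drug-metabolising genes, CYP3A5 had a log2 fold change of 0.44 ± 0.21, and CYP2D6 had -0.37 ± 0.31 with 22.9% of its 75-base words shared, chiefly with its neighbour CYP2D7. CYP3A7, CYP2W1 and CYP20A1 were at most 0.414 FPKM in every library.

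Summed within families, FPKM of the groups did not overlap except in the P450 family, where the knockdown mean was 102.5% of the control mean. The sum was 203 ± 32.9 FPKM (SD) in the control and 280 ± 30.05 in the knockdown group for AKR genes, 121 ± 3.94 and 142 ± 7.37 for ALDH, 570 ± 18.04 and 653 ± 26.03 for GST, 15.5 ± 0.79 and 19.2 ± 0.69 for MGST, and 68.6 ± 7.67 and 85.9 ± 2.72 for UGT. These sums rest on their most abundant members and were not tested. P450 sums were 47.1 ± 1.09 and 48.3 ± 4.20 FPKM. Levels ran over a wide range: 15 members had a mean above 10 FPKM, 26 between 1 and 10, and 18 below 1.

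**Figure D4:**
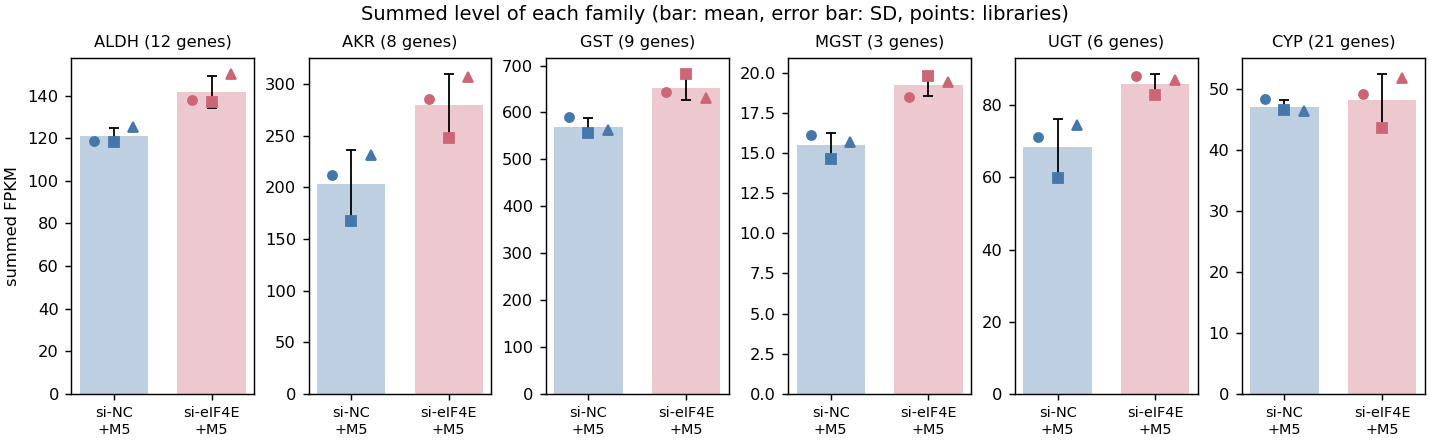
Summed FPKM (y axis, each panel with its own scale from 0) of the members of each family in si-NC+M5 (blue) and si-eIF4E+M5 (red), with bars for the mean, error bars for the SD and points for the 3 libraries. The groups do not overlap for ALDH, AKR, GST, MGST and UGT, and do for CYP, where the means are 47.1 and 48.3.

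Genes that act with these enzymes were read from lists of 97 symbols, of which 83 were tested. Of these 10 rose (12.05%) and 9 fell (10.8%), against 7.44% and 8.4% of all tested genes, and the median log2 fold change was 0.05. The split moved with the scaling, to 15 higher and 7 lower with upper quartile scaling and 13 and 8 with library totals, and DESeq2 gave 16 and 11. Of 17 genes of the NRF2 and glutathione list 3 rose (17.65%) and 4 fell (23.5%), against 7.44% and 8.4% of all tested genes. The lipogenic NADPH source ME1 (0.44 ± 0.07), the glutathione peroxidase GPX2 (0.43 ± 0.08) and the glutathione synthesis subunit GCLM (0.24 ± 0.07) rose. The cystine importer SLC7A11 fell from 16.6, 18.7 and 17.9 to 9.44, 9.60 and 10.07 FPKM (-0.90 ± 0.07, edgeR adjusted p = 9.2e-05), and the thioredoxin reductase TXNRD1 (-0.51 ± 0.06), OSGIN1 (-0.58 ± 0.12) and the sulfiredoxin SRXN1 (-0.28 ± 0.06) fell as well. NFE2L2, the gene of NRF2, had 41.4, 43.0 and 42.9 against 37.2, 39.8 and 36.2 FPKM (-0.20 ± 0.06, edgeR adjusted p = 0.054), and its inhibitor KEAP1 0.05 ± 0.05.

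AHR itself fell, from 10.03, 11.03 and 11.8 to 8.76, 8.19 and 9.97 FPKM (-0.32 ± 0.09, edgeR adjusted p = 0.038), while the quinone reductase NQO1 of the same list rose from 56.0, 53.2 and 55.2 to 65.3, 68.1 and 63.8 FPKM (0.23 ± 0.06, edgeR adjusted p = 0.019). The AHR target TIPARP had -0.13 ± 0.06 and did not pass. Among other oxidoreductases 3 of 12 rose (25%, against 7.44% of all tested genes) and 0 fell in edgeR and in DESeq2. At an unadjusted edgeR p under 0.05 it was 5 and 1. The carbonyl reductase CBR3 went from 7.49, 7.61 and 9.73 to 15.1, 16.6 and 14.7 FPKM (0.87 ± 0.13, edgeR adjusted p = 0.0019). The xylulose reductase DCXR (0.40 ± 0.08) and xanthine dehydrogenase XDH (0.38 ± 0.08) were the others called. Of 12 further conjugating and hydrolysing enzymes the epoxide hydrolases EPHX2 (0.72 ± 0.12) and EPHX1 (0.45 ± 0.08) rose, and the thiopurine methyltransferase TPMT fell (-0.57 ± 0.08). These are 16.7% and 8.33%, against 7.44% and 8.4% of all tested genes. Of 5 export genes 0 rose, also at an unadjusted edgeR p under 0.05 and in DESeq2. ABCC4 (-0.56 ± 0.08) and ABCC5 (-0.38 ± 0.08) fell, 40% of the 5 against 8.4% of all tested genes.

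**Figure D5:**
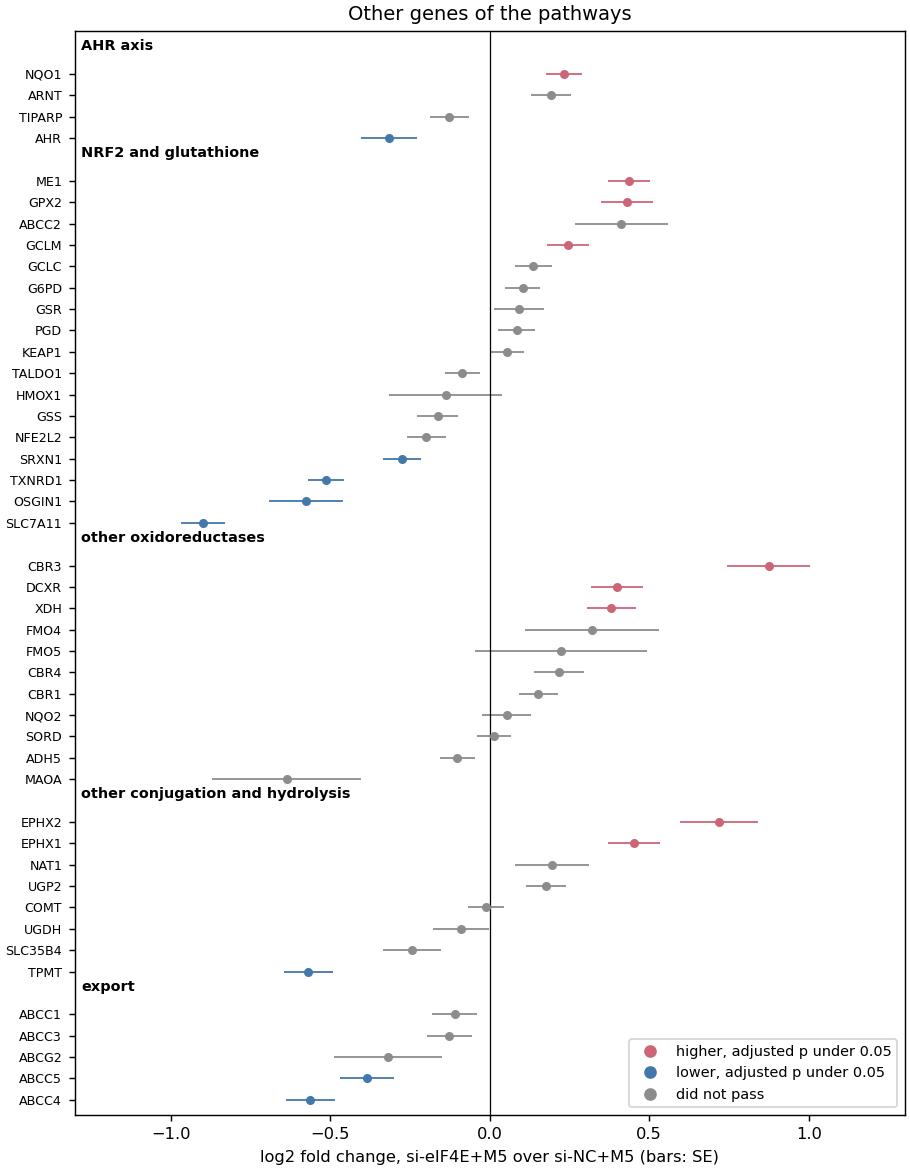
Log2 fold change (x axis, si-eIF4E+M5 over si-NC+M5, bars are SE) of 45 genes of the lists for AHR, NRF2 and glutathione, other oxidoreductases, other conjugation and hydrolysis, and export, leaving out genes with an SE of 0.3 or more; red marks genes that rose, blue those that fell and grey those that did not pass. CBR3 at 0.87 and EPHX2 at 0.72 are farthest right, and SLC7A11 at -0.90 is farthest left.

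In the P450 electron supply edgeR called 0 of 10 genes, against 15.8% of all tested genes. At an unadjusted edgeR p under 0.05 it was 1 higher and 1 lower, and DESeq2 called 1, CYB5R3. POR had 10.8, 10.2 and 11.3 against 11.2, 10.6 and 10.9 FPKM. Of 14 tested genes of retinoid handling 1 rose (7.14%, against 7.44% of all tested genes). It was the retinol uptake receptor STRA6 (0.47 ± 0.14, with an adjusted p that rounds to 0.05). CRABP2, a carrier of retinoic acid, had -0.34 ± 0.13 without passing. Of 8 receptors of vitamin D, fatty acids and foreign compounds 1 fell (12.5%, against 8.4% of all tested genes). It was PPARD (-0.22 ± 0.06, edgeR adjusted p = 0.041), and the vitamin D receptor VDR had 0.18 ± 0.06 without passing.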

How the data were processed

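The submitters' processing notes name cutadapt 1.9, FastQC and the build GRCh38. For the aligner, the counting tool and strand use, nothing is stated in the sources used here. The deposited table holds counts per gene and, per the file headers, FPKM values, which the authors scaled to gene length and library size. Low counts clustered at multiples of 4 (over the 6 libraries the count 4 occurred 6249 times, 3 occurred 3015 times and 5 occurred 2092 times), so 1 count need not be 1 read, and no counting intervals are given.

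All genes were fitted together with edgeR 4.0.16 under R 4.3.3 (filterByExpr, minimum count 10; TMM factors of 0.98 to 1.04, quasi-likelihood, two-sided, Benjamini-Hochberg, adjusted p under 0.05 called). The common biological coefficient of variation was 17.4%. Overlap of groups was read from TMM-scaled counts. Scripts were tested on simulated data. Of the named genes, every called member, the 2 most abundant of each family, uncalled members with a log2 fold change of 1 or more, a set of textbook members, and called genes of the lists were taken by rule; other genes were chosen after their values were seen. Members and lists were chosen with earlier results of these data known. One gene of the lists is not reported here. Alternatives used DESeq2 1.42.0, limma 3.58.1 and other edgeR settings.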

Additional observations from a re-analysis of the deposited data

How the results depend on the processing

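The count of members called was 14. It was 6 without a filter on low counts, 3 at an adjusted p under 0.01 (ALDH3A1, ALDH3B2 and CYP27C1) and between 4 and 15 with 1 library left out. Between 14 and 20 were called in the other settings. Dividing counts by 4 before the fit, an alternative chosen after seeing the data, gave 20. Over all genes 2853 were called in the main fit. It was 1818 without the filter, 1300 at an adjusted p under 0.01 and 1598 to 2283 with 1 library left out. In the other settings it was 2496 to 3586, with 3586 for DESeq2, 3414 for the replicate block and 3143 with counts divided by 4. The 19 called genes of the lists became 12 at an adjusted p under 0.01 and 14 to 18 with 1 library left out, and were 27 with DESeq2, 26 with a mean FPKM of at least 1, 23 with the replicate block and 22 with upper quartile scaling. EIF4E was lower in all settings, at -1.35 to -0.84. Of the 14 called members 3 kept their call in each of 17 settings, 11 lost it in at least 1 and 0 changed direction.

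Some uncalled members changed sign. GSTO1, at -0.0022, was 0.0215 with a mean FPKM of at least 1, 0.0073 with RLE scaling and with DESeq2, 0.029 with upper quartile scaling, 0.0277 with library totals, 0.0247 and 0.025 with limma at pseudocounts of 1 and 0.1, and -0.0649 to 0.0476 with 1 library left out. With 1 library left out CYP24A1 lay at -0.10 to 0.31, CYP26B1 at -0.16 to 0.0456 and CYP2W1 at -0.86 to 0.42. The causes of these sign changes were not tested. CYP4F8 kept its sign in each of 14 other settings (0.0223 to 2.82), and the summed counts of the CYP4F genes gave -0.0287. With the replicate block 20 members were called in edgeR, the 14 and also AKR1B1 (adjusted p = 0.00079), AKR1C1 (0.0011), CYP1B1 (0.0063), CYP27B1 (0.028), CYP1A1 (0.044) and GSTP1 (0.046), and CYP2W1 was 0.22. The numbers do not pair the samples by the labels, and deviations of same-numbered libraries correlated by only 0.0298, 0.0318 and 0.0439, though each library correlated best with its own number. Of the 18 members under 1 FPKM, 17 were tested and 1 was called, as higher. This is 5.88%, against 7.44% of all tested genes and 9.68% of those with a mean of at least 1 FPKM. The part of depth in this was not tested.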
